A study of Mus musculus with 5 samples.

Results

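Expression of the secretoglobins, the airway mucins and their close partners was examined in the GFP+ cells of embryonic FOXJ1-GFP mouse lungs at E17.5. The set was defined by name and not by any measured value, but it was chosen with earlier results of these data known. It holds 10 genes, namely the secretoglobins Scgb1a1, Scgb3a1 and Scgb3a2, the mucins Muc1, Muc4, Muc16, Muc5ac and Muc5b, the secreted protein gene Bpifa1 and the transcription factor gene Spdef. All 10 have a probe set annotated to that gene alone, of 18193 genes measured in this way, and together they have 12 probe sets, since Muc4 has 3 and each other gene has 1.

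The series is a single group of 5 Affymetrix arrays, 1 for each biological replicate. FOXJ1-GFP mice, in which the regulatory sequence of a ciliated cell gene drives GFP, were mated to outbred ICR mice, and embryos with GFP+ lungs were selected at E17.5. Their lungs were dissociated with trypsin/EDTA and GFP+ cells were collected by flow cytometry, so every sample shares the transgene, the stage and the sort, and there is no GFP-negative, wild-type or earlier group to compare with here. The sources used here do not give the number of embryos or litters behind a replicate, and each p-value reflects only how far these 5 samples differ, which may be partly technical. Values are log2 signals as normalized by the authors. Since probes differ in how well they bind, each gene was compared with a common background level and with itself between arrays, and no order is read from the levels of different genes. Medians of lists and the spread of genes of like level are given as a description.

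The conducting airways are kept clear by secretory cells, which release mucus and protective proteins, and by multiciliated cells, which move the mucus along. Secretoglobins are small secreted proteins, and Scgb1a1 is the classical marker of club cells, the main secretory cells of the mouse airway. Mucins are large, heavily O-glycosylated proteins that either stay anchored in the apical membrane (Muc1, Muc4, Muc16) or are secreted to form the mucus gel (Muc5ac, Muc5b). Spdef is a transcription factor required for the formation of goblet cells, and Bpifa1 encodes a protein that surface epithelium and glands of the upper airway secrete.

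The proximal promoters of Scgb3a1 and Muc1 are shown because both genes were above background while the spread between arrays was wider for Scgb3a1 than for Muc1. Each is the 250 bases before the annotated start, on the forward strand of GRCm38.p6 from RefSeq, at chr11:49663345-49663594 for Scgb3a1 and chr3:89228806-89229055 for Muc1. Capitals mark matches on either strand to any of 3 motifs. The TATA box was searched as TATAAA. The motif of forkhead factors was searched as TGTTTNC. The motif of Nkx2-1 and related factors was searched as CTCAAG. Matches to different motifs did not overlap.
Scgb3a1: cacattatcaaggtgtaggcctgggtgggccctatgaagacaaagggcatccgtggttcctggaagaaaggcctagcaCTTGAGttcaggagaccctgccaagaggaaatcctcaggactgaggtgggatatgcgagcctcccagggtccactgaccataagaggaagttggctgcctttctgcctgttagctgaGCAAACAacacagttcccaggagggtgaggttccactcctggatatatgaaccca
Muc1: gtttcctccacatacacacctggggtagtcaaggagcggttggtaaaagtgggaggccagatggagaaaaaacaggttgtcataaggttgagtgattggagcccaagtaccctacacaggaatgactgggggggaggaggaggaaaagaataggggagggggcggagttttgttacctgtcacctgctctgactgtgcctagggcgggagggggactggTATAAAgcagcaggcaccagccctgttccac
The Scgb3a1 window held the forkhead motif on the reverse strand from -55 to -49 and the Nkx2-1 motif on the reverse strand from -172 to -167, counted from the start, and no TATA box motif. The Muc1 window held the TATA box motif from -31 to -26 and neither of the other motifs. Of 32851 promoter windows of this length, 12.4% held the TATA box motif, 17.8% the forkhead motif and 13.3% the Nkx2-1 motif, so these matches are a description of the windows only. Promoters of 6 of the 10 genes were searched, and the others had no entry or were left out of the search. Of these, beside Scgb3a1 and Muc1, the TATA box motif was found for Muc4 and Bpifa1, and the Nkx2-1 motif for Bpifa1 and Spdef.

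Of the 12 probe sets, 6 were above background, which was the case for 47.7% of all 45037 probe sets. By gene, with the probe set of the highest mean taken for each, 6 of 10 were above background, against 64.2% of the 18193 genes, and the median level of the 10 genes was 8.86 against 9.07 for all genes. The share is thus close to that of the array as a whole. Above background were the 3 secretoglobins, Muc1, Muc4 and Muc5b, and not above it were Muc5ac, Muc16, Bpifa1 and Spdef. The background level was set at 7.17, below which lay 95% of the mean levels of 146 genes chosen as background. These were 77 chemosensory receptor genes, taken by name, and 69 genes listed as restricted to other tissues. Their absence from lung cells was not tested. Calls are from limma at a Benjamini-Hochberg adjusted p under 0.05 over all 45037 probe sets, one-sided. Above a cut-off of 5 were 9 of the 10 genes, against 81.3% of all genes, and the exception was Muc16. This number was taken from the study, which set it on an average expression in its comparison with another cell population, whereas here it was set on the mean of the 5 arrays.

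**Figure D1:**
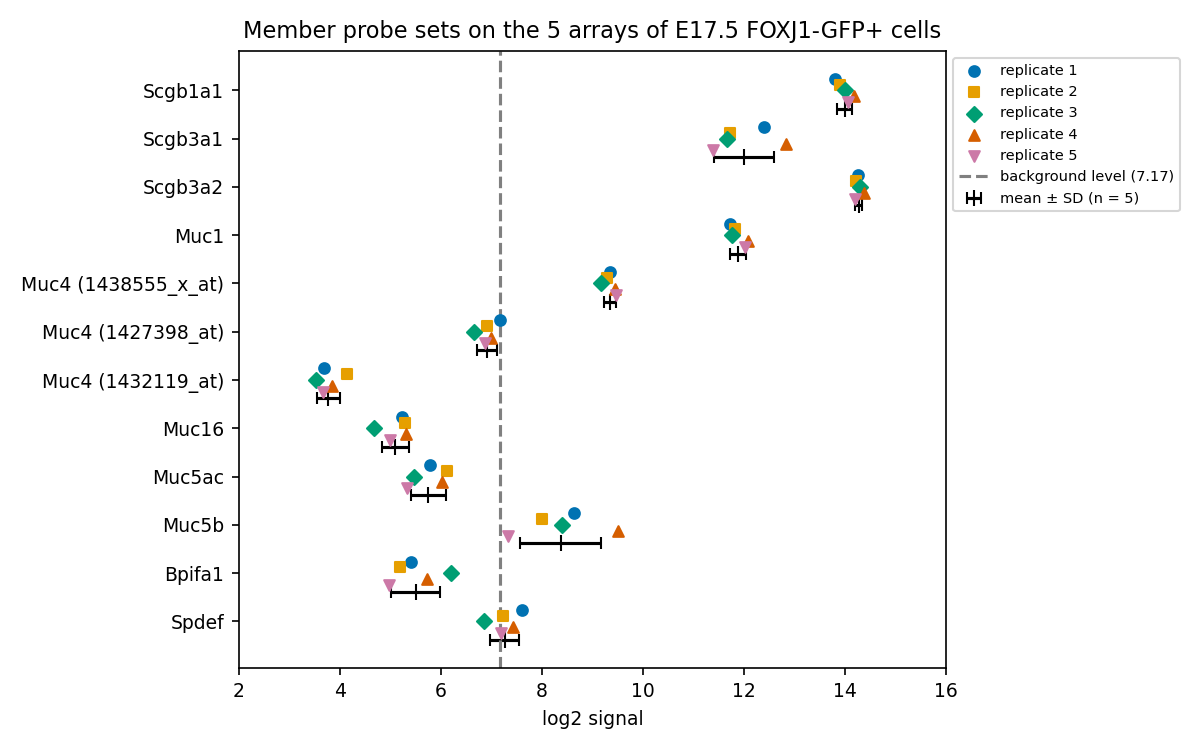
Log2 signal of the 12 probe sets on the 5 arrays. Each symbol is 1 replicate, the black tick and bar are the mean ± SD (n = 5 arrays), and the dashed line is the background level of 7.17. The secretoglobins, Muc1, 1 probe set of Muc4 and Muc5b lie above the line on every array, and Spdef straddles it.

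The secretoglobins were well above background on every array. Scgb1a1 was at 13.81, 13.90, 14.01, 14.18 and 14.05 in replicates 1 to 5, a mean of 13.99 ± 0.14 (SD, n = 5 arrays). This is 6.82 over the background level on the log2 scale (adjusted p = 5.46e-11, limma). Scgb3a2 was at 14.26, 14.22, 14.29, 14.37 and 14.19, a mean of 14.27 ± 0.07, and lay 7.10 over background (adjusted p = 4.92e-11, limma). Both genes were nearly level across the arrays, with the highest array at 1.29 and 1.13 times the lowest in linear signal. Genes of like level varied little too, with a median SD of 0.07 and 0.06. The SD of Scgb1a1 was wide beside these genes, of which 7.53% had a larger one. Scgb1a1 and Scgb3a2 are each read by a single probe set that matches several transcripts of its gene. Scgb3a1 lay 4.83 over background (adjusted p = 7.88e-08, limma), with 12.40, 11.72, 11.67, 12.84 and 11.39 in replicates 1 to 5 and a mean of 12.003 ± 0.60. Replicates 4 and 1 were high and the other arrays low, with 2.73 times as much signal in replicate 4 as in replicate 5. In bulk RNA, fewer cells of a type and less RNA per cell cannot be told apart, and this holds for every difference between arrays given here.

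The 3 other secretoglobin genes with a probe set of their own, which belong to the androgen-binding proteins of salivary and lacrimal glands, were not above background. Scgb1b2 was at 3.56 ± 0.19, Scgb1b27 at 5.89 ± 0.09 and Scgb2b27 at 4.28 ± 0.36 (SD, n = 5 arrays).

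The membrane-anchored mucins gave 1 clear signal, 1 that depended on the probe set and 1 below background. Muc1, which covers the apical surface of most simple epithelia, was at 11.73, 11.83, 11.76, 12.07 and 12.02 in replicates 1 to 5. Its mean of 11.88 ± 0.16 lay 4.71 over background (adjusted p = 2.26e-10, limma), and its highest array had 1.27 times the signal of its lowest. Muc4, a large membrane mucin of the airway surface, was read by 3 probe sets that disagreed. The brightest, whose name ends in _x_at, gave 9.35, 9.29, 9.18, 9.44 and 9.47, a mean of 9.35 ± 0.12 and 2.18 over background (adjusted p = 9.68e-09, limma). The next gave 7.18, 6.91, 6.65, 6.99 and 6.87, a mean of 6.92 ± 0.19, and lay just below the background level (-0.25, adjusted p = 1). The dimmest gave 3.69, 4.14, 3.53, 3.85 and 3.67, a mean of 3.78 ± 0.23. The call for Muc4 therefore rests on 1 probe set, whose name marks probes that may match other transcripts. With the 3 probe sets averaged Muc4 lay below that setting's background (-0.26). Without probe sets ending in _s_at, _x_at or _a_at, Muc4 lay 0.09 over the background of that setting (adjusted p = 0.336, limma). All 3 Muc4 probe sets had their lowest value in replicate 3.

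Muc16, a membrane mucin that is also a marker of mesothelium, was at 5.23, 5.30, 4.68, 5.31 and 5.00. Its mean of 5.10 ± 0.27 lay below the background level (-2.07) and did not pass the cut-off of 5 (adjusted p = 0.245, limma), which it did pass without replicate 3. Of 10 mesothelial genes on the marker list, which includes Muc16, 6 were above background, close to the 64.2% of all genes.

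The gel-forming mucins Muc5b and Muc5ac, which are next to each other on chromosome 7 in GRCm38.p6, differed in their calls. Muc5b, the main mucin of healthy airways, was at 8.63, 7.9998, 8.39, 9.51 and 7.32 in replicates 1 to 5. Its mean of 8.37 ± 0.81 lay 1.20 over background (adjusted p = 0.00334, limma). Every array was above the level, but replicate 5 by a small margin, and replicate 4 had 4.56 times the signal of replicate 5. The call for Muc5b was lost against the 69 tissue-restricted genes alone, at a level of 8.02 (0.35 over it, adjusted p = 0.297, limma), and when the level was set at the 99th percentile it lay below (-0.57). Muc5ac, the mucin that rises in goblet cell metaplasia, was at 5.79, 6.13, 5.47, 6.03 and 5.34. Its mean of 5.75 ± 0.34 was above the cut-off of 5 (adjusted p = 0.000397, limma) and below the background level (-1.42). Against the receptor genes alone, at a level of 5.43, Muc5ac was called (0.32 over it, adjusted p = 0.0286, limma). The difference between Muc5b and Muc5ac was not tested, since they are read by different probe sets.

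Of the 8 other mucin genes with a probe set, 1 was above background. Muc2, a gel-forming mucin of the intestine, was at 5.17 ± 0.22, and the membrane mucin genes Muc3, Muc13 and Muc15 at 4.68 ± 0.17, 5.62 ± 0.26 and 2.99 ± 0.09 (SD, n = 5 arrays). The gene above background was Emcn at 12.05 ± 0.37, which encodes the endothelial sialomucin endomucin and also stands on the endothelial marker list, all 18 genes of which were above background. Emcn was at 11.50, 12.31, 12.47, 12.04 and 11.93, lowest in replicate 1, as was the mean of the endothelial list (-0.52 from its own mean there). The part of endothelial cells in this signal was not tested.

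Bpifa1 and Spdef were not above background. Bpifa1 was at 5.41, 5.19, 6.19, 5.73 and 4.97, with a mean of 5.50 ± 0.48 that lay below the level (-1.67). It passed the cut-off of 5 (adjusted p = 0.0144, limma), with replicate 3 the highest array and replicate 5 just under the cut-off. Of 8 other genes of the BPI fold family, 1 was above background. Bpifa2 was at 3.50 ± 0.16, Bpifa3 at 4.76 ± 0.15 and Bpifa5 at 5.19 ± 0.21, and the exception was Bpifb1, which is secreted with the mucins in airways, at 8.12 ± 0.43 and 0.95 over background (adjusted p = 0.000469, limma). Bpifb1 was at 8.03, 7.70, 8.30, 8.77 and 7.80, with its highest value in replicate 4. The call for Bpifb1 was lost with the tissue-restricted genes alone or the 99th percentile as background. It was also lost without probe sets ending in _s_at, _x_at or _a_at.

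Spdef was at 7.60, 7.24, 6.85, 7.44 and 7.19 in replicates 1 to 5. Its mean of 7.26 ± 0.28 lay 0.09 over the background level (adjusted p = 0.422, limma), with replicate 3 below the level and the other arrays above it. With the probe sets of each gene averaged, which lowers the background level to 6.94, Spdef was called (0.33 over it, adjusted p = 0.0115, limma), and so it was against the receptor genes alone (1.83 over it).

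The machinery around secretion was described with lists of genes, by their counts against the 64.2% of all genes above background. These lists too were chosen with earlier results of these data known. All 22 measured club cell genes were above background, with a median level of 11.18. Among them were Cyp2f2, a cytochrome P450 of club cells, at 12.30 ± 0.09 (SD, n = 5 arrays), the claudin Cldn10 at 12.34 ± 0.27, the retinal dehydrogenase Aldh1a1 at 12.96 ± 0.06 and the haptoglobin gene Hp at 14.10 ± 0.03. The count of club cell genes was 15 of 22 at the 99th percentile and 19 of 22 against the tissue-restricted genes alone. Of 20 transcription factors of secretory cells and their progenitors, many of which act in other lung epithelium too, 18 were above background. Nkx2-1, the lung identity factor, was at 8.22 ± 0.34, and the forkhead factors Foxa1 and Foxa2 at 13.02 ± 0.07 and 11.44 ± 0.09. Not above background were Foxa3, a forkhead factor of goblet cells, at 5.85 ± 0.26 and the ETS factor gene Etv4 at 5.16 ± 0.23.

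Genes for goblet cells and mucus were fewer, with 9 of 23 above background and a median level of 6.67. Agr2, an endoplasmic reticulum protein needed for mucin folding, was at 12.29 ± 0.22, Creb3l1, a membrane-bound transcription factor of secretory cells, at 8.14 ± 0.32, Fcgbp, a protein of mucus, at 9.94 ± 0.38, and Tspan8, a tetraspanin, at 11.58 ± 0.24. Lyz2, a lysozyme that alveolar type 2 cells and macrophages also make, was at 12.26 ± 0.68. Ern2, a stress sensor of mucous cells, was not above background at 5.95 ± 0.22. This count was 5 of 23 at the 99th percentile and 16 of 23 against the receptor genes alone.

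Of 30 genes of mucin O-glycosylation, 19 were above background (63.3%), with a median level of 8.74. The polypeptide transferases Galnt1, Galnt2, Galnt3 and Galnt4, which add the first sugar, were at 12.39 ± 0.05, 11.24 ± 0.08, 10.85 ± 0.08 and 8.79 ± 0.06. Their relatives Galnt5, Galnt13, Galnt14, Galnt15 and Galnt16 were not above background, with means from 4.00 for Galnt14 to 6.17 for Galnt16. Of 23 genes of granule exocytosis, 20 were above background, with Vamp2, Vamp3, Vamp8 and Snap23, which act in membrane fusion, at 10.30 ± 0.10, 12.84 ± 0.09, 12.25 ± 0.14 and 10.32 ± 0.23. The exceptions were Syt2, a calcium sensor of mucin release, at 6.34 ± 0.46, Sytl2 at 6.88 ± 0.21 and Myrip at 6.86 ± 0.37, which both encode Rab27 effectors. Glycosylation and exocytosis genes act in most secreting cells, and these lists do not mark a cell type.

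**Figure D2:**
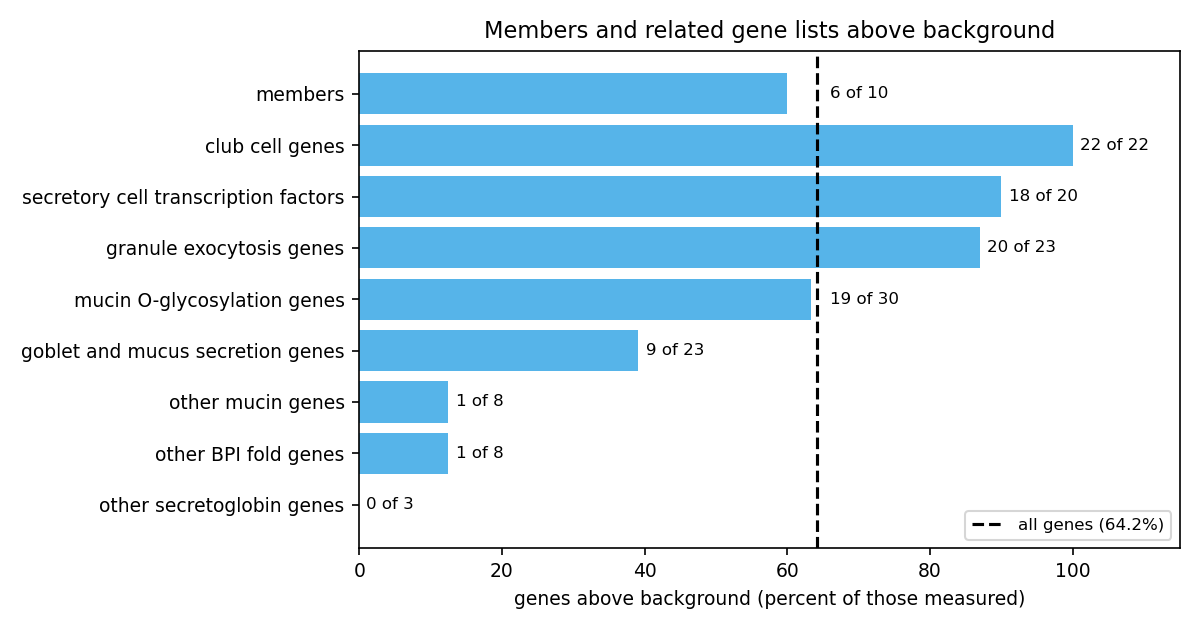
Percent of measured genes above background in the set of 10 genes and in 8 related lists, with the counts beside the bars. The dashed line is the 64.2% of all genes, and club cell genes (22 of 22) lie above it while the other mucin, BPI fold and secretoglobin genes lie far below it.

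Between the 5 arrays, Scgb3a1 and Muc5b varied most among the members above background, and they did so in a like way. Both were highest in replicate 4 and next in replicate 1, and both were lowest in replicate 5. Relative to its own mean, Scgb3a1 lay at 0.40, -0.28, -0.34, 0.84 and -0.62 in replicates 1 to 5, and Muc5b at 0.26, -0.37, 0.02, 1.14 and -1.05. They were on the same side of their means on 4 of 5 arrays, replicate 3 being the exception. The root mean square difference between their deviations was 0.29, against root mean squares of 0.53 and 0.72 for the deviations of Scgb3a1 and Muc5b themselves. A correlation coefficient over 5 arrays is not given.

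**Figure D3:**
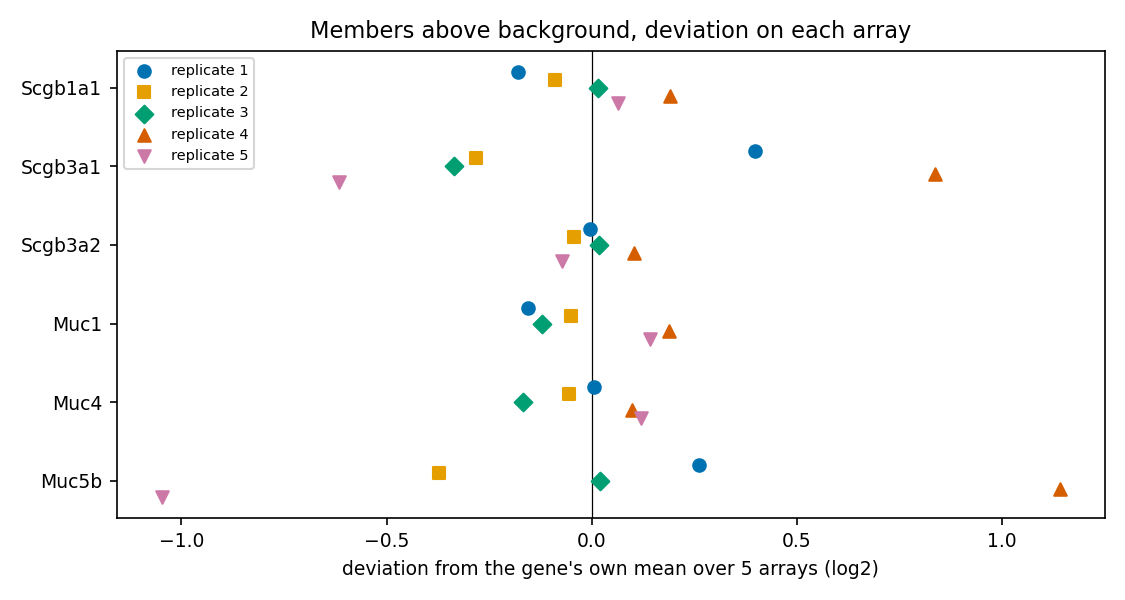
Deviation of each member above background from its own mean over the 5 arrays, in log2 units, with 1 symbol for each replicate. Scgb3a1 and Muc5b spread from -0.62 to 0.84 and from -1.05 to 1.14, and the other 4 genes stay within 0.19 of their means.

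Of the 6 genes above background, 5 had their highest value in replicate 4, the exception being Muc4, and 3 had their lowest in replicate 5. Among all genes above background these shares were 23.3% and 12.8%. Of the 12 probe sets, 5 were lowest in replicate 5 and 5 in replicate 3, against 14.4% and 27.4% of all probe sets. Over the 12 probe sets, 6 were highest in replicate 4, against 18.9% of all probe sets, and 11 were higher in replicate 4 than in replicate 5, against 50.6% of all probe sets and 58.3% of genes above background. The 10 genes are not independent, and these counts are given as a description. Scgb1a1 and Muc1 had small deviations, from -0.18 in replicate 1 to 0.19 in replicate 4 and from -0.16 to 0.19 on the same arrays. Their root mean square difference of 0.07 was the smallest of any pair of the 12 probe sets. Both genes were nearly level, and this measure is small for any such pair. In replicate 3 they lay on different sides of their means, at 0.02 and -0.12. Scgb1a1 and Scgb3a1 differed by 0.52 in this measure and lay on the same side of their means on 2 of 5 arrays. That difference is close to the root mean square of 0.53 for the deviations of Scgb3a1 itself. The mean of the 3 secretoglobin genes ranged over 0.58 on the log2 scale, and over 0.28 without replicate 4. Without replicate 4 the range of Muc5b was 1.31 in place of 2.19, and that of Scgb3a2 0.09 in place of 0.18.

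The spread of Scgb3a1 and Muc5b was large for genes of their level. Of 2061 genes with a mean within 0.5 of that of Scgb3a1, 0.19% had a larger SD, and the median SD was 0.12. Of 1582 genes within 0.5 of Muc5b, 0.44% had a larger SD, and the median SD was 0.22. For Scgb1a1 the share was 7.53% of 239 genes, for Muc1 36.1%, for Scgb3a2 37.1% and for Muc4 80.5%. Among the members that were not above background, Bpifa1 had the widest spread, and 7.32% of 1570 genes of its level had a larger SD.

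**Figure D4:**
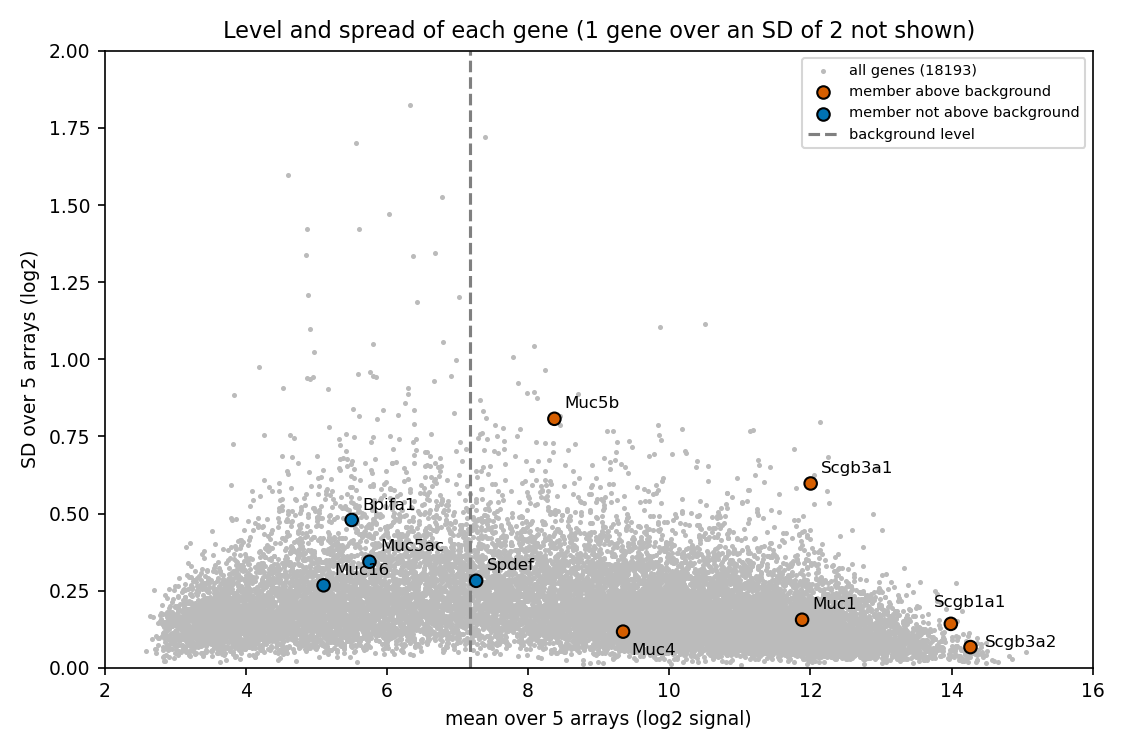
SD over the 5 arrays against the mean log2 signal, for 18193 genes (grey) and the 10 members (orange above background, blue not). Scgb3a1 and Muc5b lie at the upper edge of the cloud with SDs of 0.60 and 0.81, and Scgb3a2 lies at its lower right with an SD of 0.07.

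The genes whose deviations were nearest to those of Scgb3a1, among 11681 other genes above background, were Reg3g, Klk10 and Vps52, with root mean square differences of 0.13, 0.18 and 0.19. Reg3g, a secreted antibacterial lectin that also stands on the club cell list, was at 11.45, 10.86, 10.52, 11.72 and 10.58 in replicates 1 to 5. Klk10, a secreted kallikrein-related peptidase, was at 8.04, 7.73, 7.74, 8.85 and 7.58. Vps52, a subunit of a complex in retrograde transport to the Golgi, was at 9.31, 8.73, 8.61, 9.51 and 8.66. Like Scgb3a1, all of these were highest in replicate 4 and next in replicate 1. The nearest gene to Muc5b was Scgb3a1, followed by Gda, which encodes guanine deaminase, with a difference of 0.34, and Klk10 with 0.35. With so many genes and 5 arrays, such neighbours are a description and were not tested.

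The cell type lists were followed over the same arrays. Averaged over the 22 club cell genes, the deviation was 0.22 in replicate 4, 0.01 and 0.04 in replicates 1 and 2, and -0.15 and -0.13 in replicates 3 and 5. Of the 22 genes, 13 were highest in replicate 4, against 23.3% of genes above background. Of the 8 club cell genes with an SD over 0.3, 6 were highest in replicate 4. The exceptions were Upk3a and Pon1, which were named after their values were seen. The mean of the 9 goblet and mucus genes above background was 0.03 in replicate 4 and highest in replicate 5 at 0.11. In replicate 4 the means were -0.03 for O-glycosylation genes and -0.02 for both exocytosis genes and secretory cell transcription factors. The 6 members above background had mean deviations of 0.43 in replicate 4 and -0.24 in replicate 5. The club cell list and the members thus shared their highest array. In both means of the members Scgb3a1 and Muc5b weighed most, at 0.84 and 1.14 in replicate 4 and at -0.62 and -1.05 in replicate 5. In replicate 5 Scgb1a1, Muc1 and Muc4 lay above their own means, at 0.06, 0.14 and 0.12, and Scgb3a2 below at -0.07.

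The mean deviation of the 37 motile cilium genes above background, of 38 measured, had a range of 0.12 over the arrays. Single genes of this list ranged over 0.08 to 1.61, with a median of 0.26 and the widest range for Dnah5, an axonemal dynein gene named after its values were seen. Foxj1 itself lay between 12.72 and 12.94. The 1 motile cilium gene not above background was Spag6 at 3.67 ± 0.13 (SD, n = 5 arrays). Alveolar type 2 genes, of which 17 of 18 were above background, were lowest in replicate 1 (-0.55) and highest in replicate 5 at 0.59, the array in which Scgb3a1 and Muc5b were lowest. Endothelial genes were lowest in replicate 1 (-0.52) and highest in replicate 3 at 0.41. White blood cell genes, 15 of 23 above background against 64.2% of all genes, ran from -0.64 in replicate 1 to 0.39 in replicate 5. Alveolar type 1 genes (15 of 15) and fibroblast and smooth muscle genes (17 of 21) were lowest in replicate 1 too, at -0.16 and -0.18. Neuroendocrine genes (12 of 13) were lowest in replicate 4 (-0.18), and basal cell genes, 5 of 12 above background, were highest there at 0.15. Mesothelial genes were highest in replicate 1 at 0.23 and lowest in replicate 3 (-0.37). The part of these cell types in the values of the secretoglobin and mucin genes was not tested.

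**Figure D5:**
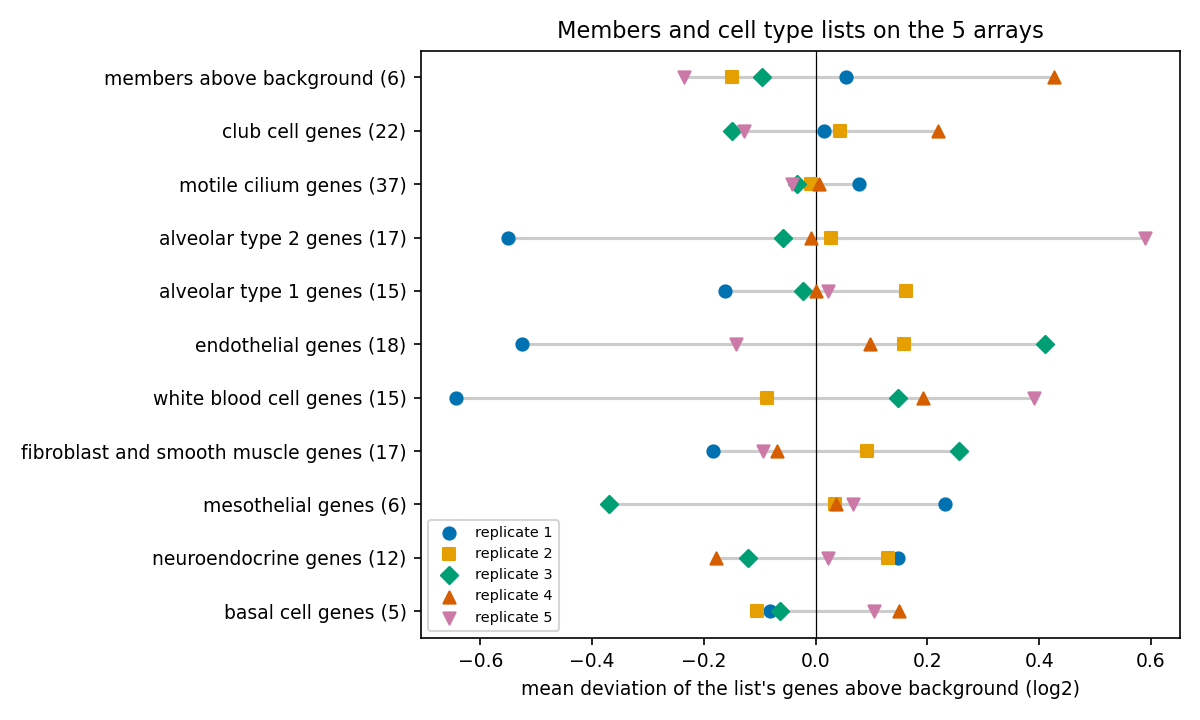
Mean deviation, in log2 units, of the members and of 10 cell type lists on each array, over the genes above background whose number stands in parentheses. The means of the members and of the club cell genes are highest in replicate 4, and Scgb3a1 and Muc5b weigh most in the former. Alveolar type 2 genes run from -0.55 in replicate 1 to 0.59 in replicate 5. The mean of the motile cilium genes stays within a range of 0.12.

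Replicate 4 had the highest 3′ to 5′ difference of Actb and the second highest of Gapdh, a measure of RNA quality. The signal of the 3′ control probe set minus that of the 5′ one was 1.02, 1.03, 1.43, 1.25 and 1.14 for Gapdh on the log2 scale in replicates 1 to 5, and 0.61, 0.51, 0.68, 0.72 and 0.67 for Actb. The part of RNA quality in these values was not tested. The medians of the arrays lay between 7.18 and 7.26. Pearson's r between pairs of arrays, over probe sets, lay between 0.987 and 0.994, and no array was a copy of another. Centring the arrays on their medians left the range of the mean of the secretoglobins at 0.59, and a further quantile normalization at 0.57. The number of arrays limits the precision of all these values.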

How the data were processed

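RNA from GFP+ cells of 5 biological replicates was amplified, labelled with biotin and hybridised by the authors to Affymetrix mouse genome arrays, which were analysed with Bioconductor in R. The deposited values are log2 signals, 1 per probe set and array, normalized between arrays by a method that the sources used here do not give. The scale was read from the values (2.37 to 15.24). If it is a probe-level summary, low and very bright values are compressed.

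Probe sets were named from the platform annotation. Of 45037 probe sets that are not controls, 34945 carried 1 gene, 932 several and 9160 none here. Of those with 1 gene, 99.4% had an identifier in the GRCm38.p6 gene table, and 0 symbols changed. With limma 3.58.1 in R 4.3.3, the mean of each probe set was estimated and tested one-sided against the background level or the cut-off of 5, with p-values adjusted by Benjamini-Hochberg over all 45037 probe sets. Of the 146 background genes, 6 were themselves called. Genes had the probe set of highest mean. The level test was tested on simulated data. Patterns were compared by the root mean square difference of deviations from the gene's mean.

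The 10 genes and the lists were chosen with earlier results of these data known. Named are all 10 genes, the first 4 of each related list and up to 5 whose call goes against most of it, and the 3 genes nearest to each member above background with an SD over 0.3. As alternatives, the background level was raised to the 99th percentile or set from only the receptor or only the tissue-restricted genes, probe sets of a gene were averaged, those ending in _s_at, _x_at or _a_at were dropped, quantile normalization or median centring was added, a call required every array to exceed the level, probe sets with means of 4 or less were left out, the cut-off was 6, and each replicate was left out. Scan dates and scanner files were not used here. Other calculations used Python 3.11.15 with numpy 2.4.6 and pandas 2.3.3.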

Additional observations from a re-analysis of the deposited data

Results flagged for a closer look

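The 12 probe sets, the named genes of the related lists, the nearest genes by pattern and the mean deviations of the lists were examined, 79 in all, and 2 genes had 1 array that stood apart by Dixon's ratio, which is the gap of an extreme array to its neighbour over the whole range and has a critical value of 0.71 for 5 samples. Chance gives this in about 1 of 20 such sets. Agr2 had a ratio of 0.788, with replicate 3 at 11.90 and the other arrays between 12.31 and 12.42. Vamp2 had a ratio of 0.801, with replicate 4 at 10.12 and the other arrays between 10.32 and 10.37. Of all 293 genes on the lists other than the 10 members, named or not, 14 passed this value. None of the 12 probe sets of the secretoglobin, mucin, Bpifa1 and Spdef genes passed this value.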

How the results depend on the processing

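Of 357 alternative values, 336 were taken as unchanged. For a gene this meant the same call, and for a range or a pattern difference a move within the spread between arrays. A count was taken as unchanged within a set factor of the main count, which is a loose rule. At the 99th percentile, club cell genes fell from 22 to 15, O-glycosylation genes from 19 to 13 and exocytosis genes from 20 to 16. These falls are among the 336. With probe sets ending in _s_at, _x_at or _a_at left out, 3 of the 7 genes and 3 of the 8 probe sets that remained were above background, since the only probe sets of Scgb1a1, Scgb3a2 and Spdef and the brightest of Muc4 went with them. The count of other mucin genes and that of other BPI fold genes were then 0 each. With the 99th percentile as background, goblet and mucus genes numbered 5, BPI fold genes 0 and Muc5b lay below the level (-0.57). With the tissue-restricted genes alone BPI fold genes numbered 0. With the receptor genes alone, goblet and mucus genes numbered 16, other mucins 2 and other secretoglobins 1. With probe sets averaged, Muc4 lay below background (-0.26). Leaving out each replicate in turn, the range of the mean of the 3 secretoglobin genes lay between 0.28 and 0.58, with the lowest value without replicate 4. The causes were not tested beyond what leaving out features shows. The 6 genes above background numbered 5 to 8 under other levels and 6 without any 1 replicate. Averaging gives no count of probe sets, and without the marked probe sets the mean of the secretoglobins has no range. No paired analysis was possible because the series has 1 group.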
